A study of Rattus norvegicus with 20 samples.

Results

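The neurotrophin genes Bdnf and Ntf3 and the receptor genes Ntrk2, Ntrk3 and Ngfr were described on 20 one-colour Affymetrix arrays of rat brain RNA. The 5 genes were taken by name, out of 14217 genes that the platform annotation names. They were read by the 10 probe sets annotated to 1 of these genes alone, of 31042 probe sets that are not controls: 2 for Bdnf, 1 each for Ntf3, Ntrk3 and Ngfr, and 5 for Ntrk2. All animals were male Sprague Dawley rats aged 20 weeks and weighing 250 to 300 g. Of these, 10 had breathed 2% isoflurane, a volatile anaesthetic, in oxygen for 15 minutes (1.4 MAC, the unit of anaesthetic potency) and 10 had breathed oxygen alone for the same time. Tissue labelled as brain cortex was taken 6 hours later, and each array came from 1 rat.

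Neurotrophins are secreted growth factors that are made as longer precursors and cut to the mature form. Brain-derived neurotrophic factor (Bdnf) acts mainly through the receptor tyrosine kinase TrkB (Ntrk2), and neurotrophin-3 (Ntf3) mainly through TrkC (Ntrk3). The p75 receptor (Ngfr) binds all mature neurotrophins and, with sortilin, their precursors. Ntrk2 and Ntrk3 each give transcripts with and without the kinase domain, and in the brain the kinase-lacking TrkB is abundant in astrocytes. The sources used here do not say which of these transcripts each probe set reads.

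The labelled tissue did not hold for all arrays. Parted by Pcp2, which Purkinje cells of the cerebellum express, at a signal of 4096, 11 arrays were cerebellum-like, namely isoflurane replicates 1, 3, 7, 8 and 9 and oxygen replicates 5 to 10. The other 9, isoflurane replicates 2, 4, 5, 6 and 10 and oxygen replicates 1 to 4, were cortex-like. These sets come from the arrays' own values and are not groups of the labels. Apart from Pcp2, which defined the sets, all 9 cerebellar granule and Purkinje cell markers tested were higher on the cerebellum-like arrays, and of 7 cortical projection neuron markers, 7 were lower there. All 6 striatal, 4 microglia, 4 oligodendrocyte and 3 endothelial markers tested were lower there too, so the cortex-like arrays also carried striatal markers. Astrocyte (3 higher, 2 lower) and hippocampal (1 and 1) markers went both ways, and 1 choroid plexus and 1 meningeal and mural marker were higher. Of all probe sets tested 36% were higher and 24.8% lower. Among the cortex-like arrays, isoflurane replicates 2, 4, 5 and 6 stood apart. The ratio of signal at the 3' to the 5' end of the β-actin control, a sign of RNA quality, ran from 4.93 to 7.26 on these 4 and from 2.13 to 3.94 on the remaining 16, whereas the GAPDH ratio overlapped (1.18 to 1.25 and 1.08 to 1.39). Their log2 signal of Pcp2 lay between 4.46 and 5.93, against 7.63 to 10.67 on the other 5 cortex-like arrays. Choroid plexus markers (4 of 4 with a probe set) summed to 488 to 632 on those 4, against 839 to 13271 on the other 5. The markers did not move together: Ttr was lower on the 4 (7.63 to 8.38, against 9.39 to 13.66), Kcnj13 was higher (7.19 to 7.81, against 5.99 to 6.41), and Folr1 and Kl overlapped. The astrocyte markers Gfap (11.75 to 12.22, against 12.61 to 13.01) and Aldh1l1 (8.73 to 9.09, against 9.45 to 9.78) lay lower on the 4. The astrocyte markers Aqp4, Gja1, Slc1a2 and Slc1a3 overlapped, so the list did not move as a whole. Of the cortical markers Tbr1 lay lower (3.99 to 5.38, against 6.47 to 8.31). Rorb (9.78 to 10.23, against 7.24 to 9.01) and Fezf2 (9.27 to 9.43, against 8.69 to 9.12) lay higher, and the other cortical markers overlapped. Lower without overlap were also striatal Ppp1r1b (11.42 to 11.82, against 12.15 to 12.76) and hippocampal Wfs1 (7.90 to 8.21, against 8.92 to 9.71). The same held for Olig2 (oligodendrocyte lineage), Csf1r (microglia) and Islr (meningeal and mural), while the other markers of these lists overlapped. Of the cerebellar markers Gabra6, Cbln1, En2, Fat2, Calb1 and Car8 lay lower too, and Neurod1, Zic1 and Zic2 overlapped. The part of these differences in the results was not tested. Since tissue was measured in bulk, fewer cells of a type and less RNA per cell cannot be told apart.

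Levels are given as log2 of the deposited signal, on which a difference of 1 is a 2-fold difference. A level says nothing about another probe set's level, because probe sets differ in brightness. Tests were made with limma over 18625 probe sets whose mean exceeded 6.62, the 40th percentile of all means, and p-values were adjusted over all of them (Benjamini-Hochberg, threshold 0.05). Of the 10 member probe sets 7 passed this filter. Those of Ntf3 and Ngfr and the Ntrk2 probe set 1370652_at lay below it, and their p-values come from a fit over all 31042 probe sets.

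**Figure D1:**
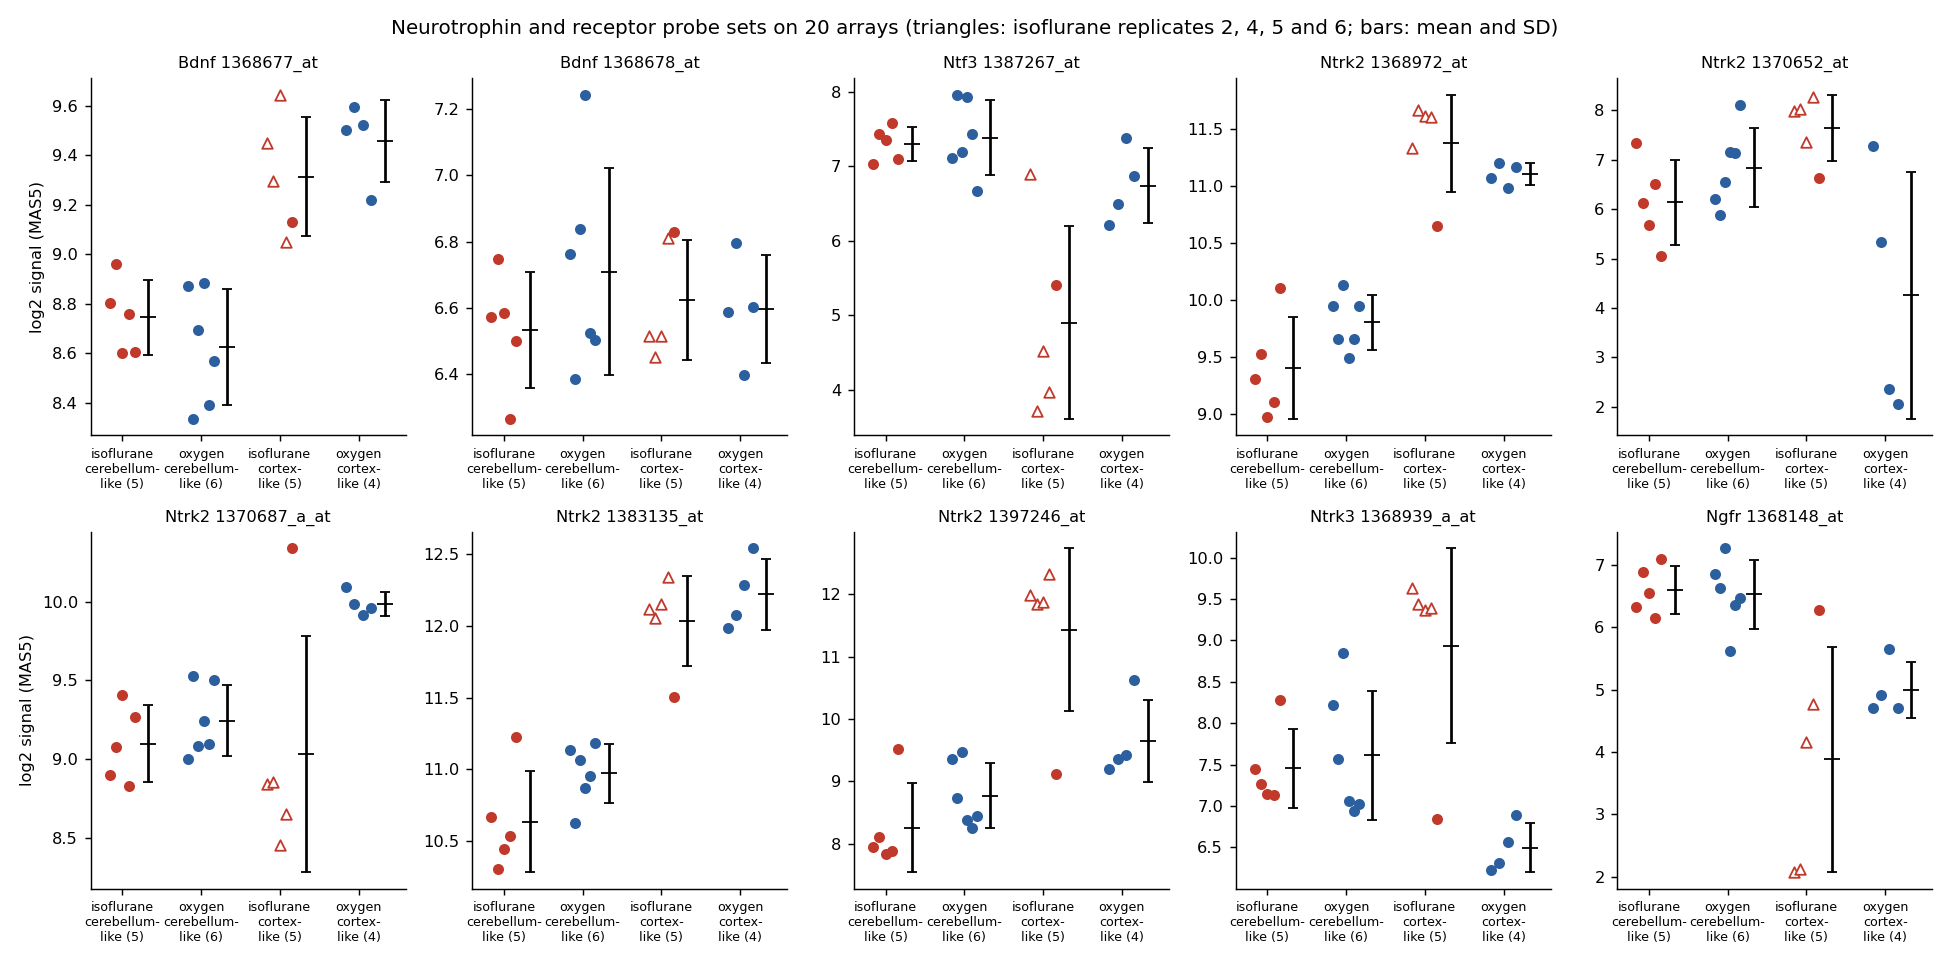
Each panel plots the log2 signal (y axis) of 1 member probe set on the 20 arrays by gas and array set (x axis, number of arrays in brackets), with 1 point per array and the mean and SD as bars. Triangles mark isoflurane replicates 2, 4, 5 and 6, which lie at 9.37 to 9.63 for Ntrk3, above every other array, while both Bdnf panels show overlap between the gases in each set.

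Bdnf, the neurotrophin whose transcription follows neuronal activity, is transcribed from several alternative promoters, and a probe set in a shared exon does not tell them apart. RefSeq gave 6 promoter windows of 300 bases for Bdnf and 3 for Ntf3 on the rat assembly GRCr8. One Bdnf window, shown because it holds the letters of a cyclic AMP response element, the kind of site that Creb1 binds, is printed here over chr3:116637760-116637887 on the plus strand. The capitals mark the match to TCACGTCA, searched on both strands, which starts 38 bases before the annotated transcript start.
Bdnf: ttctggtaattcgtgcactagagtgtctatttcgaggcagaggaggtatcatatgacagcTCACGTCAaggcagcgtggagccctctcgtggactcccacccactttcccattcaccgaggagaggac
The match was present in 1 of the 6 Bdnf windows and in 0 of the 3 Ntf3 windows, and in 134 of 33469 windows of the same length (0.4%). The letters searched were chosen by hand, so these shares are not a test of enrichment. The match is a description of the sequence and not a measured binding site.

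Bdnf was higher on the cortex-like arrays and did not differ detectably between isoflurane and oxygen. With probe set 1368677_at its signal was 8.80, 8.96, 8.60, 8.76 and 8.60 on the 5 cerebellum-like isoflurane arrays, and 8.34 to 8.88 (median 8.63) on the 6 cerebellum-like oxygen arrays. On the cortex-like arrays it was 9.45, 9.29, 9.65, 9.05 and 9.13 after isoflurane and 9.50, 9.59, 9.52 and 9.22 after oxygen. Every cerebellum-like array lay below every cortex-like array, while the gases overlapped within both sets. The mean was 8.68 ± 0.20 (SD, n = 11) on cerebellum-like arrays and 9.38 ± 0.21 (SD, n = 9) on cortex-like arrays. The difference was -0.70 ± 0.10 SE (limma, adjusted p = 2.95e-06), and it was -0.57 among isoflurane arrays and -0.84 among oxygen arrays alone. Such a lack of overlap between the sets was found for 18.8% of all probe sets tested. The difference between the gases was 0.00 ± 0.10 SE over all 20 arrays with the array set as a term (limma, adjusted p = 0.993). It was 0.12 ± 0.13 SE within the cerebellum-like arrays and -0.15 ± 0.14 SE within the cortex-like arrays (limma, adjusted p = 0.666 and 0.49).

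The second Bdnf probe set did not show the tissue difference. Signals of 1368678_at, whose mean of 6.62 lay at the edge of the filter, ran from 6.27 to 7.24 on cerebellum-like arrays and from 6.40 to 6.83 on cortex-like arrays. These ranges overlap almost fully, and the difference was 0.01 (limma, adjusted p = 0.954). Between the gases it was -0.08 over all 20 arrays (limma, adjusted p = 0.698). Across the 11 cerebellum-like arrays both Bdnf probe sets had a Pearson r of 0.55 and a Spearman rho of 0.59 (permutation p = 0.0755 and 0.0609, adjusted over 11 probe set pairs 0.208 and 0.168).

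Ntf3, which encodes the ligand of TrkC, was higher on the cerebellum-like arrays. Its dim probe set read 7.02, 7.43, 7.36, 7.58 and 7.09 on cerebellum-like isoflurane arrays and 6.67 to 7.96 (median 7.30) on cerebellum-like oxygen arrays. On cortex-like arrays it read 6.90, 3.72, 4.52, 3.97 and 5.41 after isoflurane, and 6.21, 6.49, 7.37 and 6.86 after oxygen. The low values belonged to isoflurane replicates 4, 5, 6 and 10, which lay below every oxygen array, and replicate 2 lay among the oxygen arrays. The difference between cerebellum-like and cortex-like arrays was 1.54 ± 0.36 SE (limma without a filter, adjusted p = 0.00132). It was 2.40 among isoflurane arrays (adjusted p = 0.00242) and 0.65 among oxygen arrays alone (adjusted p = 0.122), so that oxygen arrays by themselves did not pass. Without isoflurane replicates 2, 4, 5 and 6 it was 0.97 (adjusted p = 0.00655), and with the log2 β-actin ratio as a covariate, chosen after seeing the data, 0.80 (adjusted p = 0.138).

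Between the gases the Ntf3 difference did not pass in the fit of either set alone at the deposited scaling. It was -0.08 within the cerebellum-like arrays (limma without a filter, adjusted p = 0.916) and -1.83 ± 0.60 SE within the cortex-like arrays (adjusted p = 0.0672), with an exact permutation p of 0.0556 (two-sided, smallest possible 0.00794). Without isoflurane replicate 2 or without replicate 10 the cortex-like value passed, at -2.33 (adjusted p = 0.0349) and -1.96 (adjusted p = 0.0435). In the 4-group fit the value of -1.83 passed (adjusted p = 0.00889). The cortex-like value also passed with quantile normalization (-2.19, adjusted p = 0.0426) and with arrays centred on their medians (-2.04, adjusted p = 0.0345). With centring the effect also differed between the sets, by 1.99 for cerebellum-like minus cortex-like (limma, interaction term, adjusted p = 0.0407). Without isoflurane replicates 2, 4, 5 and 6, which leaves 1 isoflurane array, the cortex-like value was -1.32.

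Ntrk2, which encodes the BDNF receptor TrkB, was lower on the cerebellum-like arrays by 3 of its 5 probe sets. With 1368972_at the signal was 9.31, 9.53, 8.97, 9.11 and 10.11 on cerebellum-like isoflurane arrays and 9.49 to 10.13 (median 9.80) on cerebellum-like oxygen arrays. On cortex-like arrays it was 11.34, 11.67, 11.62, 11.61 and 10.65 after isoflurane, and 11.08, 11.21, 10.98 and 11.17 after oxygen. No cerebellum-like array reached the lowest cortex-like array. The difference between the sets was -1.64 ± 0.16 SE (limma, adjusted p = 1.1e-08). The brightest probe set, 1383135_at, also separated the sets completely, with 10.31 to 11.23 on cerebellum-like and 11.51 to 12.54 on cortex-like arrays, and differed by -1.33 ± 0.12 SE (limma, adjusted p = 3.96e-09). With 1397246_at the sets overlapped (7.84 to 9.52 and 9.12 to 12.33), and the difference was -2.05 ± 0.42 SE (limma, adjusted p = 0.000261). The size of that value rests on isoflurane replicates 2, 4, 5 and 6, without which it was -0.88 (adjusted p = 0.0192). It was -3.18 among isoflurane arrays (adjusted p = 0.000385) and -0.88 among oxygen arrays alone (adjusted p = 0.0356, exact permutation p = 0.0524). With the log2 β-actin ratio as a covariate it was -0.71 and did not pass (adjusted p = 0.0555).

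The other 2 Ntrk2 probe sets departed from these 3 over all 20 arrays. Signals of 1370687_a_at were 8.82 to 9.53 on cerebellum-like arrays. On cortex-like arrays they were 8.84, 8.85, 8.46, 8.65 and 10.34 after isoflurane, and 10.09, 9.99, 9.91 and 9.96 after oxygen. Isoflurane replicate 10 thus lay with the oxygen arrays, and replicates 2, 4, 5 and 6 at the low end of the cerebellum-like range or below it. Over all 20 arrays the sets differed by -0.33 (limma, adjusted p = 0.141), and without the 4 arrays by -0.87 (adjusted p = 1.16e-05). Among oxygen arrays alone the difference was -0.745 (limma, adjusted p = 0.000386), in the direction of the first 3 probe sets. Among isoflurane arrays alone it was 0.07 (exact permutation p = 0.913). The dim probe set 1370652_at differed by 0.49 (limma without a filter, adjusted p = 0.595). The difference was -1.51 among isoflurane arrays alone (adjusted p = 0.0118) and 2.59 among oxygen arrays alone (adjusted p = 0.0393), and 1.79 without the 4 arrays (adjusted p = 0.0688).

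Agreement between the Ntrk2 probe sets within the 11 cerebellum-like arrays followed the same division. Across these arrays 1368972_at and 1397246_at had a Pearson r of 0.89 and a Spearman rho of 0.93 (adjusted permutation p = 0.00451 and 0.00099), with r = 0.88 without the 2 arrays farthest from the median. For 1368972_at and 1383135_at r was 0.82 and rho 0.80 (adjusted permutation p = 0.0173 and 0.0227), with 0.76 without those 2 arrays. For 1383135_at and 1397246_at r was 0.75 and rho 0.78 (adjusted permutation p = 0.0391 and 0.0227). It was 0.70 without the 2 arrays farthest from the median of 1383135_at, whereas the median of 1368972_at was used before. In the 7 pairs with 1370652_at or 1370687_a_at r lay between -0.35 and 0.19 and none passed. On the same arrays the log2 β-actin ratio had r = 0.85 with 1368972_at, 0.78 with 1383135_at and 0.74 with 1397246_at (rho 0.84, 0.83 and 0.81, permutation p adjusted over 10 probe sets 0.0095, 0.0327 and 0.0384 for r, and 0.0119 each for rho). Oxygen replicates 5 and 7 and isoflurane replicate 9 had the lowest Pcp2 log2 signals of these arrays (13.60 to 13.65, against 13.90 to 14.17). They were also the highest for 1397246_at (9.36 to 9.52, against up to 8.74). For 1383135_at oxygen replicate 10 (11.18) lay among them (11.07 to 11.23). The correlations pooled both gases. The part of RNA quality, tissue make-up or gas in the agreement was not tested. The 9 cortex-like arrays formed 2 clusters of under 6 arrays, so no correlation is given there.

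**Figure D2:**
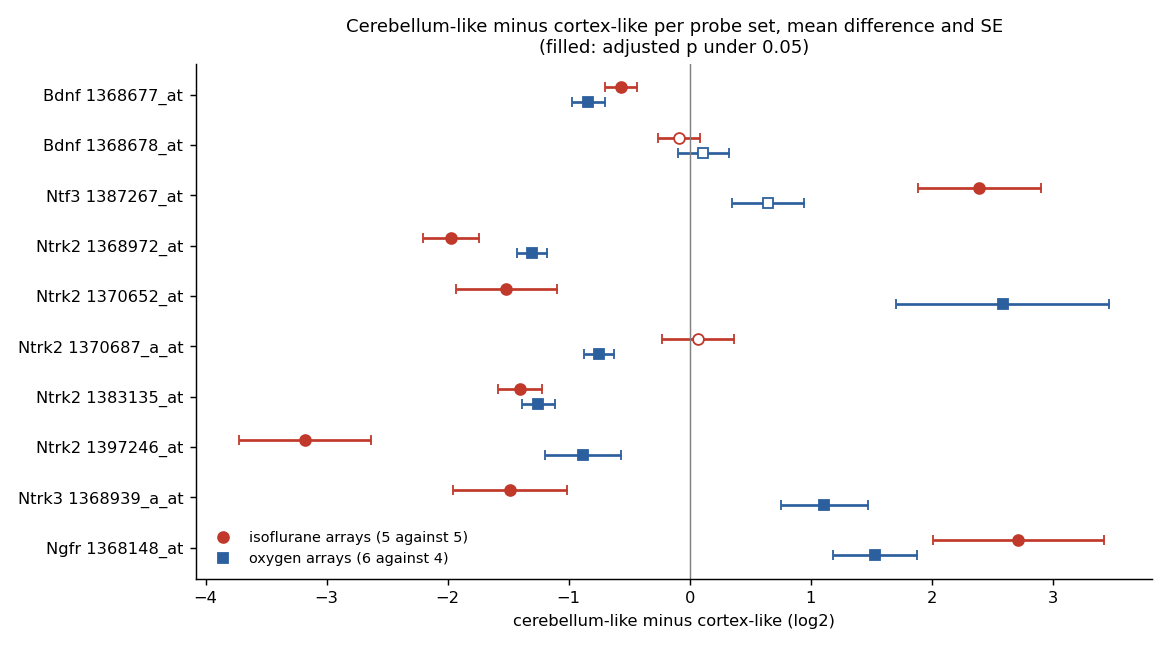
Points give the cerebellum-like minus cortex-like difference in log2 signal (x axis) of each member probe set (y axis), with the SE as bars, in separate fits of the isoflurane arrays (circles) and the oxygen arrays (squares). Filled points passed an adjusted p of 0.05, and the 2 fits lie on opposite sides of 0, both filled, for Ntrk3 (-1.48 and 1.11) and Ntrk2 1370652_at (-1.51 and 2.59).

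Ntrk3, the receptor of neurotrophin-3, differed between the sets in opposite directions in the 2 gases. Its signal was 7.44, 7.26, 7.15, 7.14 and 8.28 on cerebellum-like isoflurane arrays, and 6.94 to 8.85 (median 7.31) on cerebellum-like oxygen arrays. On cortex-like arrays it was 9.63, 9.44, 9.37, 9.39 and 6.84 after isoflurane, and 6.23, 6.31, 6.56 and 6.89 after oxygen. The first 4 of these isoflurane arrays, replicates 2, 4, 5 and 6, were the highest of all 20, and replicate 10 lay among the oxygen arrays. Over all arrays the sets differed by -0.21 ± 0.42 SE (limma, adjusted p = 0.685). Among isoflurane arrays the difference was -1.48 (adjusted p = 0.0177) and among oxygen arrays 1.11 (adjusted p = 0.0229), where no array of one set lay within the other. Without the 4 isoflurane arrays the cerebellum-like arrays were higher by 0.98 (limma, adjusted p = 0.0091).

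Ngfr, the p75 receptor, was higher on the cerebellum-like arrays. Its dim probe set read 6.32, 6.88, 6.54, 6.16 and 7.09 on cerebellum-like isoflurane arrays and 5.61 to 7.27 (median 6.55) on cerebellum-like oxygen arrays. On cortex-like arrays it read 2.07, 2.12, 4.16, 4.77 and 6.28 after isoflurane and 4.71, 4.92, 5.65 and 4.71 after oxygen. The highest cortex-like value was that of isoflurane replicate 10, the cortex-like array with the most summed cerebellar marker signal (12338, against 3340 to 7200 on the other 8). It also had the highest summed signal of striatal markers (18041, against up to 16379) and of the dim cholinergic markers (339, against up to 247) among them. The part of any of these in the Ngfr value was not tested. The difference between the sets was 2.14 ± 0.43 SE (limma without a filter, adjusted p = 0.000294), at 2.72 among isoflurane arrays and 1.53 among oxygen arrays alone. It was 1.22 without isoflurane replicates 2, 4, 5 and 6 (adjusted p = 0.00296). Between the gases it was 0.07 within the cerebellum-like arrays and -1.12 within the cortex-like arrays (limma without a filter, adjusted p = 0.946 and 0.404).

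In all, 4 of the 7 members tested differed between the sets, all lower on cerebellum-like arrays, where 60.8% of all probe sets tested did so (24.8% lower). Without a filter 6 of the 10 did, 2 higher and 4 lower, where 43.7% of all probe sets did (24.8% higher and 18.9% lower). In either direction the members' shares lie near the background, and in the lower direction above it. The 4 lower probe sets are 1 of Bdnf and 3 of Ntrk2, so they read 2 genes, and nothing is called particular to the members.

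The comparison of isoflurane with oxygen asked which transcripts differed 6 hours after anaesthesia. Over all 20 arrays with the array set as a term, 0 of the 7 members passed (3 with an unadjusted p below 0.05), where 7.37% of all probe sets tested did. Ntrk3 differed by 1.01 ± 0.42 SE (limma, adjusted p = 0.131). The Ntrk2 probe sets ran from -0.51 ± 0.19 SE for 1370687_a_at (limma, adjusted p = 0.0945) to 0.51 ± 0.42 SE for 1397246_at (adjusted p = 0.448), with -0.27 for 1383135_at (adjusted p = 0.15) and -0.10 for 1368972_at (adjusted p = 0.716). Of these, 1370687_a_at passed without isoflurane replicate 10 (-0.63, adjusted p = 0.0192) and 1383135_at without isoflurane replicate 9 (-0.34, adjusted p = 0.0379). The dim members differed by -0.87 for Ntf3, 1.14 for Ntrk2 1370652_at and -0.46 for Ngfr (limma without a filter, adjusted p = 0.173, 0.351 and 0.574). Without isoflurane replicates 2, 4, 5 and 6 limma called 0 of all probe sets.

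Within the 11 cerebellum-like arrays 0 of the 7 members passed, and of 18625 probe sets limma called 0 (0%), while 2376 had an unadjusted p under 0.05. The Ntrk2 probe sets 1368972_at and 1383135_at differed by -0.40 ± 0.19 SE and -0.34 ± 0.15 SE (limma, adjusted p = 0.391 and 0.385), with isoflurane replicate 9 high for both, at 10.11 and 11.23. In each case 4 of 5 isoflurane arrays lay below the oxygen mean. Without isoflurane replicate 9 the values were -0.58 and -0.48 and passed (limma, adjusted p = 0.0366 and 0.0311), as 1086 of all probe sets then did. That array had the highest β-actin ratio of the 5 (2.85, against 2.13 to 2.44 on the other 4). It also had the highest GAPDH ratio (1.38, against 1.08 to 1.16) and the lowest Pcp2 log2 signal (13.65, against 13.96 to 14.17). The part of each in these values was not tested. With the log2 β-actin ratio as a covariate and all 11 arrays the values of 1368972_at and 1383135_at were -0.18 and -0.18 (limma, adjusted p = 0.833 and 0.824). Ntrk2 1397246_at differed by -0.52 and Ntrk3 by -0.16 (limma, adjusted p = 0.475 and 0.843). No member's groups were free of overlap, against 0.988% of all probe sets.

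**Figure D3:**
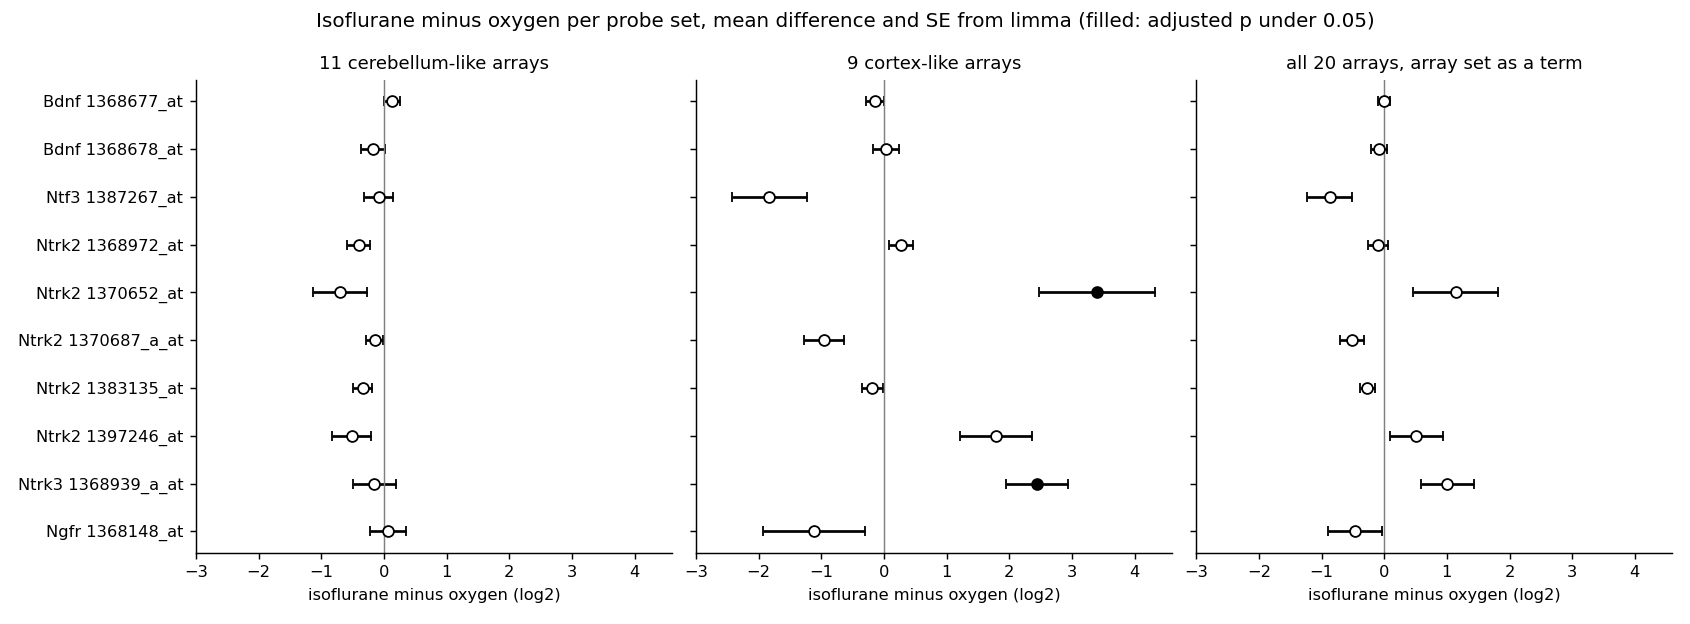
Points give isoflurane minus oxygen in log2 signal (x axis) for each member probe set (y axis), with the SE as bars, within the cerebellum-like arrays, within the cortex-like arrays and over all 20 arrays with the set as a term. Filled points passed an adjusted p of 0.05, namely Ntrk3 (2.44) and Ntrk2 1370652_at (3.40) within the cortex-like arrays.

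Within the 9 cortex-like arrays Ntrk3 was higher after isoflurane, and it was the 1 of 7 members that passed, where 18.6% of all probe sets did. Its mean was 8.94 ± 1.17 (SD, n = 5) after isoflurane and 6.50 ± 0.30 (SD, n = 4) after oxygen, a difference of 2.44 ± 0.50 SE (limma, adjusted p = 0.0115) with 5 of 5 isoflurane arrays above the oxygen mean. The exact permutation test gave a two-sided p of 0.0238, and the call held with each array left out in turn (limma, adjusted p from 1.97e-06 to 0.036). Leaving out isoflurane replicates 2, 4, 5 and 6 left 1 isoflurane array, with a difference of 0.35 (limma, adjusted p = 0.933, the lone array assumed to vary like the others). With the log2 β-actin ratio as a covariate the difference was 1.44 (adjusted p = 0.067).

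The Ntrk2 probe sets pointed in different directions on the cortex-like arrays. The dim 1370652_at read 7.98, 8.02, 7.36, 8.28 and 6.62 after isoflurane, against 7.28, 5.33, 2.35 and 2.06 after oxygen. It was higher by 3.40 ± 0.92 SE (limma without a filter, adjusted p = 0.035, where 12.5% of all probe sets passed), a call that was lost in 7 of 9 fits that left 1 array out (adjusted p up to 0.0996). It was 2.37 without isoflurane replicates 2, 4, 5 and 6 (adjusted p = 0.933), with 1 isoflurane array left. Oxygen replicate 1 lay within the isoflurane range and oxygen replicates 3 and 4 far below it. For 1397246_at the signal was 11.99, 11.85, 11.88, 12.33 and 9.12 after isoflurane, against 9.21, 9.35, 9.42 and 10.63 after oxygen, a difference of 1.78 ± 0.57 SE that did not pass (limma, adjusted p = 0.0519). For 1370687_a_at it was -0.96 ± 0.31 SE (limma, adjusted p = 0.0538, exact permutation p = 0.0476). In both, isoflurane replicates 2, 4, 5 and 6 lay beyond the oxygen range and replicate 10 on the other side of that range, and without replicate 10 both passed (2.36, adjusted p = 9.97e-05, and -1.29, adjusted p = 2.6e-05). Without replicates 2, 4, 5 and 6 the values were -0.53 and 0.35 (adjusted p = 0.902 each), again with 1 isoflurane array left. The brighter 1368972_at and 1383135_at differed by 0.27 and -0.19 (limma, adjusted p = 0.332 and 0.454), and 1368972_at passed without replicate 10 (0.45, adjusted p = 0.00527). No member's groups were free of overlap, against 13.2% of all probe sets.

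The difference of the isoflurane effect between the sets was tested as an interaction, cerebellum-like minus cortex-like. It passed for 2 of the 7 members, where 10.2% of all probe sets did. It was -2.60 ± 0.64 SE for Ntrk3 (limma, adjusted p = 0.0158), the effect being -0.16 within the cerebellum-like and 2.44 within the cortex-like arrays. It was -2.30 ± 0.68 SE for Ntrk2 1397246_at (limma, adjusted p = 0.0374), a call lost in 14 of 20 fits that left 1 array out (adjusted p up to 0.0792). For the dim Ntrk2 1370652_at it was -4.10 ± 1.04 SE (limma without a filter, adjusted p = 0.0224, where 7.17% passed), lost without oxygen replicate 3 or 4 (adjusted p = 0.0545 and 0.0555). Without isoflurane replicates 2, 4, 5 and 6 the values were -0.50, 0.01 and -3.07 and none passed.

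**Figure D4:**
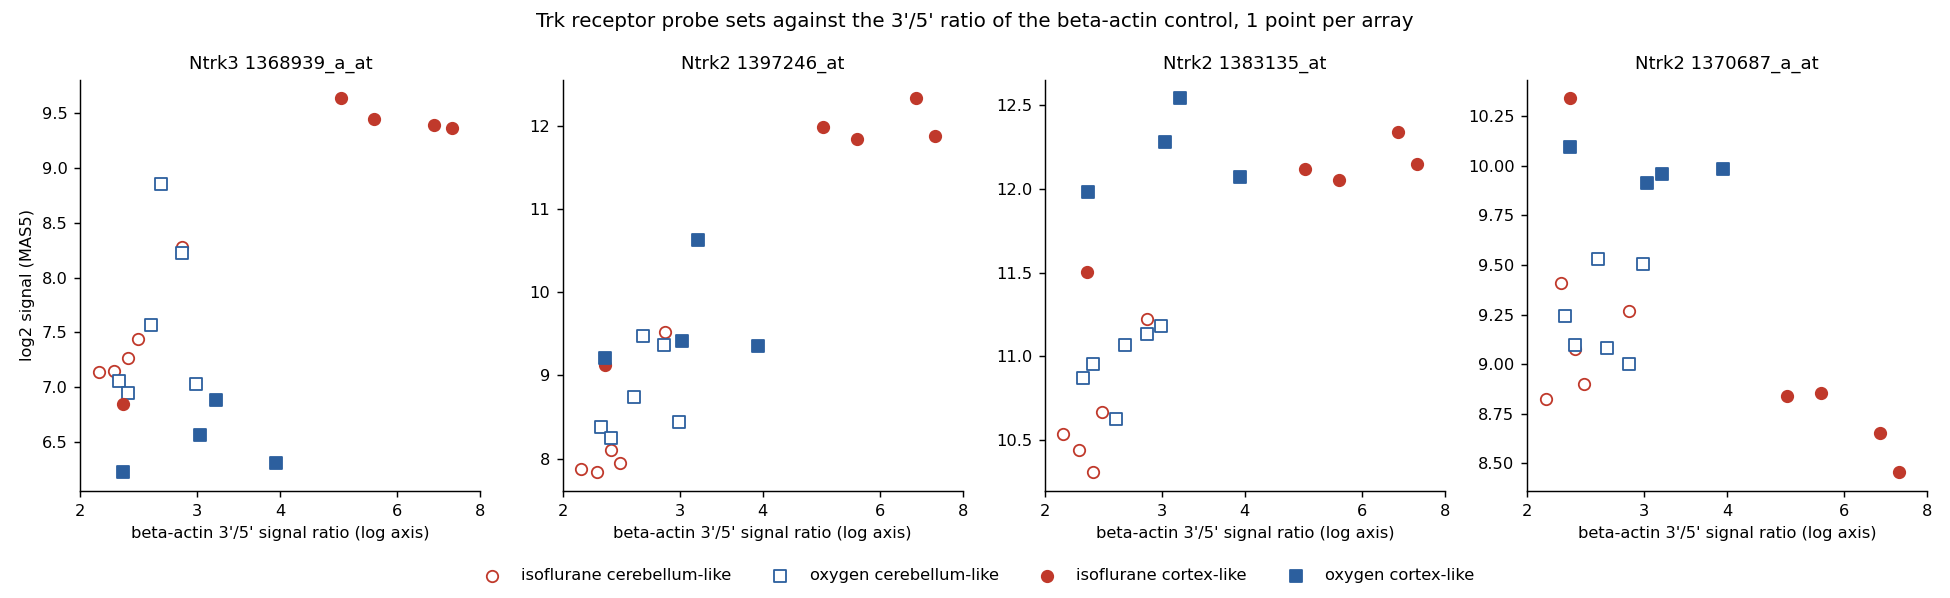
Each panel plots the log2 signal (y axis) of 1 Trk receptor probe set against the β-actin 3'/5' ratio (x axis, log scale), with 1 point per array, open for cerebellum-like and filled for cortex-like arrays. The 4 isoflurane arrays with ratios from 4.93 to 7.26 are the highest for Ntrk3 and Ntrk2 1397246_at and among the lowest for Ntrk2 1370687_a_at.

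The highest Ntrk3 and Ntrk2 1397246_at signals lay on the arrays with the highest β-actin ratios, as the plot of signal against that ratio shows. With the ratio as a covariate 0 of the 7 members passed within the cortex-like arrays and 0 in the interaction, where the values were -1.36 for Ntrk3 and -0.84 for Ntrk2 1397246_at (limma, adjusted p = 0.222 and 0.476). For Ntrk2 1370652_at, which is not plotted, the covariate changed the values little, but neither passed (limma without a filter). The interaction was -4.03, against -4.10 without the covariate (adjusted p = 0.146 with it). The cortex-like value was 3.27, against 3.40 (adjusted p = 0.169 with it). On the cortex-like arrays 4 of the 5 isoflurane arrays held all the high ratios and the lowest Pcp2 and Ttr signals. Of 6 astrocyte markers 2 were lower after isoflurane there and none higher (limma), where 7.42% of all probe sets tested were lower. Of 5 meningeal and mural markers 2 were lower as well. In the choroid plexus, oligodendrocyte, microglia and hippocampal lists 1 marker each was lower and none higher. Of 7 cortical projection neuron markers 1 was higher and 1 lower. The part of each in the result was not tested.

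Other genes of the pathway were taken from 5 lists, each gene by its brightest probe set. In the order in which the lists follow, their median differences between the sets were -0.19, 0.06, -0.09, 0.31 and -1.49, against 0.06 over 10315 genes. Within the cortex-like arrays the medians between the gases were -0.08, 0.01, -0.09, 0.02 and -0.19, against -0.05 over all genes. The counts that follow stand against 60.8% of all probe sets tested that differed between the sets (36% higher and 24.8% lower on cerebellum-like arrays). Between the gases the shares were 7.37% over all arrays and 18.6% within the cortex-like arrays (11.2% higher and 7.42% lower). Among 12 other ligands, receptors and co-receptors, 2 were higher and 6 lower on cerebellum-like arrays. Sort1, the sortilin gene, differed by -1.60, Sorcs2, a sortilin relative that pairs with p75, by -1.94, and Lingo1, a partner of p75 in the Nogo receptor complex, by -1.99 (limma, adjusted p from 1.14e-12 to 2.37e-11). None of the 12 passed between the gases over all arrays or within a set, the lowest p within the cortex-like arrays being that of Sorcs2 (-0.29, limma, adjusted p = 0.0918). Over all arrays Sorcs3 had the lowest (-0.27, adjusted p = 0.0894).

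Among 12 genes of precursor processing and release, 5 were higher and 5 lower on cerebellum-like arrays. Cadps2, which primes dense-core vesicles and takes part in BDNF release, differed by 1.49, the proprotein convertase gene Pcsk6 by 1.64 and the vesicle protein gene Syt4 by 0.69 (limma, adjusted p from 1.95e-12 to 1.28e-08). Over all 20 arrays 3 of the 12 fell after isoflurane (median of the 12 -0.03, against -0.02 over 10315 genes). Furin, a protease that cuts neurotrophin precursors, fell by 0.37, Vamp2, a vesicle fusion protein, fell by 0.55, and Hap1, a carrier of BDNF vesicles, fell by 0.42 (limma, adjusted p = 0.039, 0.021 and 0.0344). Within the cortex-like arrays Vamp2 (-0.54) and Hap1 (-0.66) passed (limma, adjusted p = 0.0154 and 0.0156). Within the cerebellum-like arrays Vamp2 had the lowest p of the list and differed by -0.56 (adjusted p = 0.351).

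Of 30 Trk adaptors and kinases, 7 were higher and 10 lower on cerebellum-like arrays, led by Dok5, an adaptor of Trk receptors (-1.70), and the kinase genes Rps6ka2 (-1.48) and Map2k1 (-0.65). After isoflurane 2 of the 30 fell over all arrays, the kinase gene Akt1 (-0.53) and Sh2b1, an adaptor (-0.41) (limma, adjusted p = 0.0132 and 0.0313). Within the cortex-like arrays 2 rose and 5 fell. The adaptor gene Grb2 fell by 0.62, Akt1 fell by 0.85 and Pik3r1, a regulatory subunit of phosphoinositide 3-kinase, rose by 2.15 (limma, adjusted p = 0.0105, 0.00709 and 0.0165). Grb2 was the 1 of the 30 whose isoflurane effect differed between the sets (0.62, limma, adjusted p = 0.01).

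Of 15 regulators of Bdnf transcription, 7 were higher and 3 lower on cerebellum-like arrays. Creb1, which binds cyclic AMP response elements, was higher by 1.09, and Mef2c (-3.39) and Arnt2 (-2.14), which also act on Bdnf promoters, were lower (limma, adjusted p from 5.94e-11 to 2.95e-06). After isoflurane Camk4, a calcium-dependent kinase acting on Creb1, rose by 0.62 and Mef2d fell by 0.35 over all arrays (limma, adjusted p = 0.0328 and 0.0492). Within the cortex-like arrays Camk4 rose by 0.70 and Usf2 fell by 0.74 (limma, adjusted p = 0.0181 and 0.0216), while neither Bdnf probe set passed there.

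Genes that respond to BDNF or to activity were mostly lower on cerebellum-like arrays, 15 of 18, with 2 higher and a median of -1.49, against 0.06 over 10315 genes. Vgf, a neuropeptide precursor induced by BDNF, differed by -2.62, Rgs4 by -1.94 and the postsynaptic scaffold gene Homer1 by -1.82 (limma, adjusted p from 5.69e-14 to 9.89e-12). After isoflurane 1 of the 18 fell over all arrays, Vgf, by 0.56 (limma, adjusted p = 0.0399). Within the cortex-like arrays 1 rose and 4 fell, among them Gad1, the GABA-synthesising enzyme (0.35), Dusp6, a phosphatase induced by ERK signalling (-0.62), and Vgf (-0.42) (limma, adjusted p = 0.0158, 0.0167 and 0.0186). Within the cerebellum-like arrays 0 genes of any of the 5 lists passed in limma, and Vgf differed by -0.66 there (adjusted p = 0.352). Without isoflurane replicates 2, 4, 5 and 6 none of the list genes passed between the gases, since 0 of all probe sets did.

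The genes whose signal followed a member most closely across arrays were named by Pearson r over 20 arrays after centring within the 4 combinations of gas and set, out of 10315 genes. For Ntrk2 1383135_at these were Zc3h7b (r = 0.94), Kmt2d (0.92) and Trak1 (0.91), and on the 16 arrays without isoflurane replicates 2, 4, 5 and 6 they had 0.94, 0.92 and 0.89. For Ntrk3 they were Rabgap1 (0.94), Slc43a2 (0.94) and Traf6 (0.93), with 0.90, 0.87 and 0.92 on the 16 arrays. For Bdnf 1368677_at they were Epc2 (0.78), Xrn1 (0.69) and Bend3 (0.67), with 0.69, 0.63 and 0.58 on the 16 arrays. For Ntf3 they were Syap1 (0.79), Prdm8 (0.71) and Csf1 (0.70), with 0.68, 0.48 and 0.47. For Ngfr they were Mrgprf (0.78), Cux1 (0.77) and Klhl22 (0.77), with 0.28, 0.47 and 0.59, so that likeness to Ntf3 and Ngfr was lower without the 4 arrays. These values are descriptions, since all arrays share scaling and the differences in RNA quality given above.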

How the data were processed

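RNA of 20 rats, 1 array each, was labelled with biotin and hybridised, per the labels' protocols; titles gave group and replicate. The intensities (linear signals) that the authors deposited name MAS5 and Affymetrix Expression Console as their tools, according to the processing notes of the submitters, with versions and settings not given in the sources used here. Each array had been scaled to a 2% trimmed mean of 500.1 to 500.2, so differences are relative to an array's average transcript. Detection calls were not used here.

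Values under 1 (2079) were raised to 1 and log2 was taken. The table held 31099 probe sets, 57 of them controls. Probe sets with 1 annotated symbol numbered 20826, those with several 436 and those with none 9780, and symbols were updated through RefSeq's GRCr8 table. Of 182 listed genes 23 had no probe set of their own and are not analysed here. Comparisons used R 4.3.3 and limma 3.58.1 with an intensity trend (two-sided), tested on simulated data. Exact permutation tests took all regroupings within a set, and correlations 100000 resamples, in Python 3.11.15 (scipy 1.17.1, numpy 2.4.6, pandas 2.3.3); plots used matplotlib 3.10.9. The number of arrays limits the precision. The tests set a difference against the spread between arrays, each from 1 rat, which also holds differences in tissue and RNA quality.

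All member probe sets are named. In each list and comparison the text names up to 3 genes with the lowest p among those past the threshold, otherwise the 1 lowest, and for each member the 3 genes with the highest r. The members, lists, tests and array sets were chosen with earlier results of these data known. Other settings tried were arrays centred on their medians, quantile normalization, a pseudocount of 16 or 64, no or a stricter filter (60th percentile), eBayes without trend or made robust, array weights, a replicate block, no set term, a cerebellar marker score in place of the set, a 4-group fit, each gas alone, each array left out, and no isoflurane replicates 2, 4, 5 and 6. The β-actin ratio as a covariate, and the fit without both the set term and those 4 arrays, were added after seeing the data.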

Additional observations from a re-analysis of the deposited data

Results flagged for a closer look

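Single arrays lay far from the others of their group in 9 of 60 groups of member values tested with Dixon's criterion. Its rate by chance of about 1 group in 20 does not apply to this count. The groups share arrays, and those of all 10 arrays of a gas mix both array sets. Isoflurane replicate 10 was the highest cortex-like isoflurane array for Ntrk2 1370687_a_at, at 10.34 against 8.85 for the next, and the highest of all 10 isoflurane arrays (next 9.41). The same array was the lowest of the cortex-like isoflurane arrays for Ntrk2 1397246_at, at 9.12 against 11.85, and for Ntrk3, at 6.84 against 9.37. Isoflurane replicate 9 was the highest cerebellum-like isoflurane array for Ntrk2 1397246_at, at 9.52 against 8.10, and for Ntrk3, at 8.28 against 7.44. Oxygen replicate 4 was high for Ntrk2 1397246_at, at 10.63, against 9.42 among the cortex-like oxygen arrays and 9.47 among all 10. Oxygen replicate 8 was the highest of the 10 oxygen arrays for Bdnf 1368678_at, at 7.24 against 6.84.

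The isoflurane effect differed between the array sets, cerebellum-like minus cortex-like, by -2.60 for Ntrk3, -2.30 for Ntrk2 1397246_at and -4.10 for Ntrk2 1370652_at (limma, interaction term, adjusted p = 0.0158, 0.0374 and 0.0224, the last without a filter). The β-actin ratio was high on isoflurane replicates 2, 4, 5 and 6, and with it as a covariate none passed. The values were then -1.36, -0.84 and -4.03, so that of Ntrk2 1370652_at changed little.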

How the results depend on the processing

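The difference between the sets in Bdnf 1368677_at and Ntrk2 1368972_at and 1383135_at kept its direction and call in every alternative run. That of the dim Ngfr probe set did so too, in the fits over all probe sets (with 1 array left out, limma adjusted p from 2.98e-05 to 0.000774). Of 1380 values of single probe sets under other settings, 1303 kept their side of the threshold (58 of them with a changed sign, neither value past the threshold), 36 lost the call, 36 gained it and 5 turned. The turned values were the set difference of Ntrk3 among oxygen arrays (1.11), without isoflurane replicates 2, 4, 5 and 6 (0.98) and with the β-actin covariate (1.07), that of Ntrk2 1370652_at among isoflurane arrays (-1.51), and the interaction of Ntrk2 1397246_at without the 4 arrays (0.012). Of 20 exact permutation tests within a set 19 matched the limma call and 1, of Ntrk2 1370687_a_at, passed where limma did not.

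Between the gases over all 20 arrays, 1372 probe sets were called, against 74 without a set term, 0 without the 4 arrays (with or without the set term) and 480 to 2938 with 1 array left out. Of the members 0 to 1 passed with 1 array left out, and 1, Ntrk2 1383135_at, passed with the β-actin covariate or the cerebellar score. Replicate numbers did not pair the arrays, since 2 of 10 pairs had a correlation of deviations over 0.1 and 1 isoflurane array was closest to its own number. With the replicate block 29 were called. Within the cerebellum-like arrays 1075 were called with array weights and 0 to 1086 with 1 array left out (members 0 to 2). Within the cortex-like arrays counts were 3469 as reported, 5243 with arrays centred (1467 higher and 3776 lower, against 2087 and 1382), 6787 with array weights, 144 with the β-actin covariate, 0 without the 4 arrays and 1606 to 6266 with 1 array left out. Members called there, 1 as reported, were 4 with array weights, 3 with arrays centred or in the 4-group fit, 2 with quantile normalization, a pseudocount of 64 or no filter, 0 with the stricter filter, the β-actin covariate or without the 4 arrays, and 1 to 4 with 1 array left out. The interaction had 1897 calls as reported, 3899 with arrays centred (2840 higher and 1059 lower, against 480 and 1417), 5815 with array weights, 1037 with the stricter filter, 2 with the covariate, 13 without the 4 arrays and 1109 to 4303 with 1 array left out. Members called there, 2 as reported, were 4 with array weights, 1 with the stricter filter, 0 with the covariate or without the 4 arrays, and 1 to 4 with 1 array left out. Set differences kept 10902 to 11478 calls with 1 array left out (members 4). Centring moved the median of all probe sets to -0.21 within the cortex-like arrays and to 0.25 in the interaction. Before centring, the array medians were 7.20 to 7.23 on oxygen replicates 2, 3 and 4, all cortex-like, and 7.38 to 7.57 on all other arrays. Centring raises those oxygen arrays relative to the others. Why their medians were low, and the cause of the other changes, was not tested.

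Signal near background limits Ntf3, Ngfr and Ntrk2 1370652_at, whose log2 values reached down to 3.72, 2.07 and 2.06. Detection calls were not used here. The 4 arrays leave 1 isoflurane array among the cortex-like ones, so the gases cannot be compared there without them with any precision, and Ntrk2 isoforms could not be assigned to probe sets.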
